A study of Mus musculus with 4 samples.

Results

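Genes of iron and heme handling were followed through 3 lists of transcription factor binding sites in mouse cells. They were the ferritin genes Fth1 and Ftl1, the heme transporter gene Slc48a1, the biliverdin reductase B gene Blvrb and the iron exporter gene Slc40a1. A window of the mm9 genome was assigned to each gene, and every peak with its summit, the base of highest signal, inside a window was taken. Where the gene lies within its window was not checked, since no mm9 gene positions were used. Below, a site named for a gene is a site in the window of that gene. The windows ran from 10020000 to 10090000 on chromosome 19 for Fth1, from 52680000 to 52750000 on chromosome 7 for Ftl1 and from 97590000 to 97650000 on chromosome 15 for Slc48a1. Those of Blvrb and Slc40a1 ran from 28160000 to 28270000 on chromosome 7 and from 45930000 to 46020000 on chromosome 1. Together they held 24 of the 7017 peaks of the study: 13 of 3873 for Bach1, 6 of 1385 for Bach2 and 5 of 1759 for Mafk. The members were chosen by the summit positions in these same lists, and the windows with earlier results of the lists known, so the values are a description and carry no test.

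The peaks came from chromatin immunoprecipitation and sequencing (ChIP-seq) in M1, a cell line from a mouse myeloid leukemia, grown without stimulation. There was 1 library for each factor, made with the in-house antibodies A1-6 (Bach1) and Bach2N2 (Bach2) or, for Mafk, bought as an antibody to NF-E2 p18, a further name of that protein. A further library of input DNA, with no antibody, had no peak list here and was not analysed by itself. It may be the control behind the deposited fold enrichments. With 1 library per factor there is no replicate error, and every interval given covers the counting of fragments alone.

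Bach1 and Bach2 are repressors that pair with small Maf proteins such as Mafk and bind Maf recognition elements in DNA. Heme binds both Bach proteins and releases them from DNA, so that genes for heme breakdown and iron handling are known targets. Heme enters the cytosol through transporters, is broken down by heme oxygenase to biliverdin and iron, and the iron is stored in ferritin or exported by ferroportin.

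All 3 factors had a peak in all 5 windows, and in each window their peaks met at 1 common site. Of stretches of the same width laid over the genome, 8.75% at 70 kb (the width used for Fth1 and Ftl1), 7.66% at 60 kb (Slc48a1), 13.0% at 110 kb (Blvrb) and 10.9% at 90 kb (Slc40a1) held a Bach1 summit. For Bach2 these shares were 3.35%, 2.89%, 5.11% and 4.27% in the same order, and for Mafk 4.55%, 3.95%, 7.05% and 5.77%. A site of all 3 factors lay in 0.790% of the 70 kb stretches, 0.682% of the 60 kb, 1.24% of the 110 kb and 1.02% of the 90 kb ones. Since the windows were chosen with their peaks known, nothing is read from the excess. The 24 peaks formed 13 separate sites: 5 with all 3 factors, 1 with Bach1 and Bach2 (Ftl1 window), and 7 with Bach1 alone. Of the 5410 sites of the whole study, 5.49% held all 3 factors. Each of the 6 Bach2 peaks and each of the 5 Mafk peaks lay on a Bach1 peak, with at least 1 bp in common, against 85.2% of all Bach2 peaks and 23.9% of all Mafk peaks. In the other direction, 6 of the 13 Bach1 peaks lay on a Bach2 peak and 5 on a Mafk peak, against 30.3% and 10.8% of the whole Bach1 list.

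**Figure D1:**
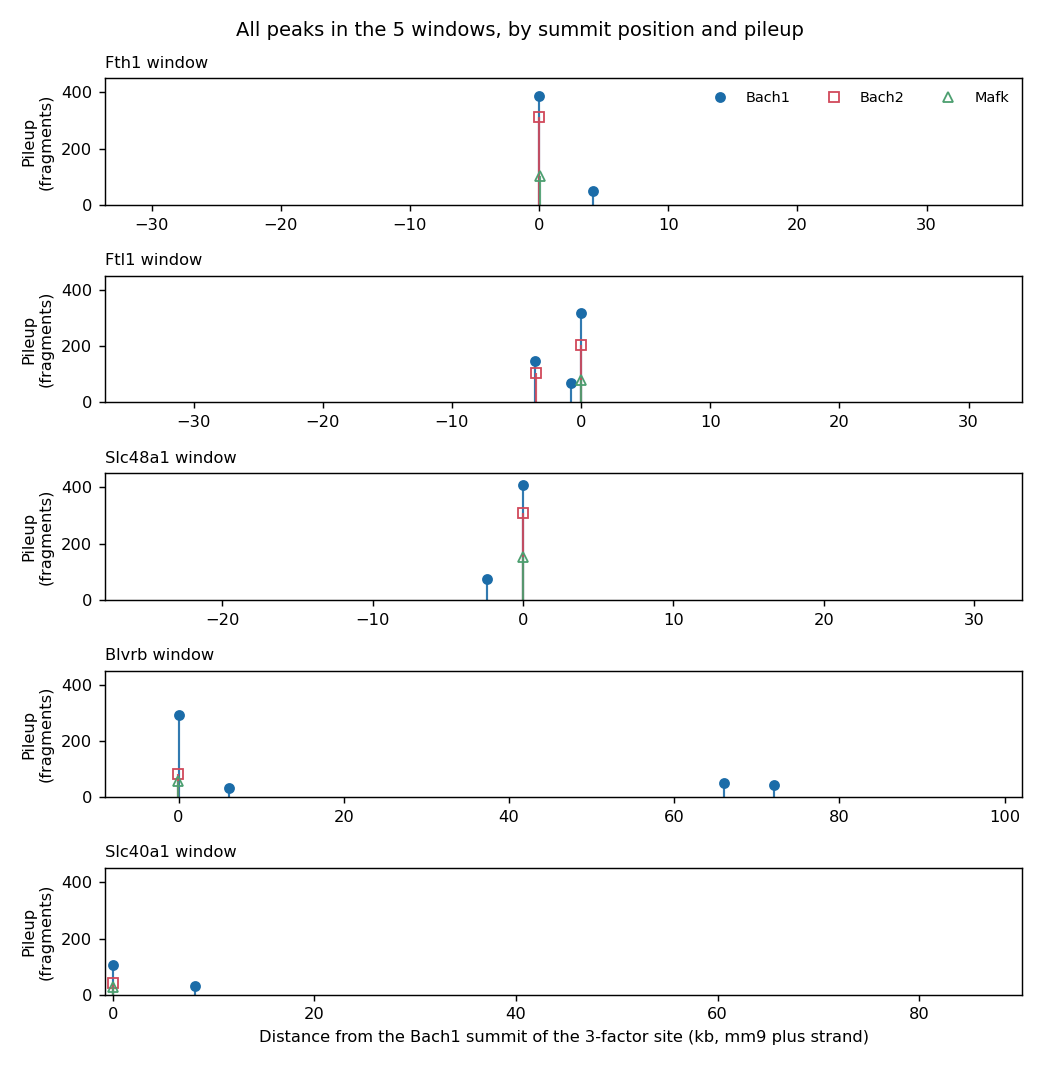
Summit position (kb from the Bach1 summit of the site with all 3 factors, mm9 plus strand) and pileup (fragments at the summit, not scaled between libraries) of all 24 peaks, with 1 panel per window spanning that window. Each window has 1 site where the 3 symbols stand together, the other Bach1 peaks are lower, and the Slc40a1 site stands at the very start of its window.

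Ferritin stores iron in a shell of heavy and light subunits, and Fth1 encodes the heavy one, which oxidises iron. The common site in its window lay at 10052713 to 10053459 on chromosome 19. The Bach1 pileup there, the number of fragments that overlap at the summit, was 386 (95% exact Poisson interval 348 to 426), with a fold enrichment over control of 32.0, rank 12 of 3873 in the Bach1 list. The Bach2 pileup was 314 (280 to 351) with a fold enrichment of 20.1, rank 3 of 1385. Both Bach peaks were thus among the strongest of their lists. The Mafk pileup was 104 (85.0 to 126), with a fold enrichment of 5.78, rank 544 of 1759. By pileup the same Mafk peak ranked 90, and its control background, 3.19 times the lowest in the list, moved with that difference; its part in the rank was not tested. A further Bach1 peak followed 4160 bp away, at 10057174 to 10057433, with a pileup of 50 (37.1 to 65.9) and a fold enrichment of 3.69, below the list's median of 4.66.

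Ftl1 encodes the light subunit, which helps to form the iron core. Its window was the one with more than 1 Bach2 peak. The common site, at 52715882 to 52716747 on chromosome 7, had a Bach1 pileup of 318 (284 to 355) with a fold enrichment of 18.2, rank 93. For Bach2 the pileup was 205 (178 to 235) and the fold enrichment 8.79, rank 98. Mafk had a pileup of 78 (61.7 to 97.3) and a fold enrichment of 3.48, rank 1552, which is low in its list, although by pileup this peak ranked 218. The control background there was the highest of the 5 common sites, between 3.96 (Bach1) and 4.03 (Mafk) times the lowest of the list. It enters the fold enrichments, and so their ranks, by definition.

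A second Ftl1 site, at 52712586 to 52713067 for Bach1 and 52712566 to 52712992 for Bach2, stood 3530 bp before the first by its Bach1 summit. It had a Bach1 pileup of 149 (126 to 175; fold enrichment 12.1) and a Bach2 pileup of 105 (85.9 to 127; fold enrichment 6.49), with summits at 52712822 and 52712835. No Mafk peak was called there. At a control background within 10% of that at this site, the lowest pileup of any Mafk peak was 38, so a Mafk signal below about that height could have gone uncalled. Between both sites lay a Bach1 peak without partners, at 52714939 to 52715766, with a pileup of 68 (52.8 to 86.2) and a fold enrichment of 4.88. It was long, 828 bp, and ended 115 bp before the common site began. The Ftl1 window therefore held 3 Bach1 summits within 3530 bp, with pileups of 149, 68 and 318.

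Slc48a1 encodes HRG1, a transporter that moves heme from lysosomes to the cytosol. The common site of its window lay at 97616603 to 97617843 on chromosome 15, and the Bach1 peak there was the longest of the 24, at 1241 bp. It had a Bach1 pileup of 408 (369 to 450) with a fold enrichment of 27.7, rank 18. The Bach2 pileup was 308 (275 to 344) with a fold enrichment of 16.3, rank 7, and its interval overlapped that of the Bach2 peak at Fth1. Mafk was higher here than at the other 4 common sites: its pileup was 153 (130 to 179), with an interval above the Fth1 one, and its fold enrichment of 8.07 ranked 162. A Bach1 peak 2364 bp before it, at 97614756 to 97615096, had a pileup of 73 (57.2 to 91.8). Its fold enrichment was the lowest of the 13 Bach1 peaks, 2.87, at a control background 5.94 times the lowest in the list, the highest background of the 24 peaks.

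Blvrb encodes biliverdin reductase B, which reduces flavins and some forms of biliverdin. Its window held the Bach1 peak with the highest fold enrichment of the whole list, 45.3, at 28167760 to 28168745 on chromosome 7. The pileup of that peak was 294 (261 to 330), rank 77, and the control background was low, 1.32 times the lowest. Bach2 was much lower in its own list: its pileup was 82 (65.2 to 102), with a fold enrichment of 9.14, rank 86 by fold enrichment and 453 by pileup. Mafk had a pileup of 57 (43.2 to 73.9) and a fold enrichment of 6.35, rank 396. The other 3 Bach1 peaks had no partner. One lay 6081 bp away, at 28174297 to 28174688, with a pileup of 34 (fold enrichment 6.76). The remaining pair lay 66062 and 72109 bp away, at 28234268 to 28234680 and 28240303 to 28240672, with pileups of 52 and 43 and fold enrichments of 4.41 and 6.48.

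Slc40a1 encodes ferroportin, the known exporter of iron from mammalian cells. The common site in its window, at 45930034 to 45930666 on chromosome 1, had the lowest pileup of the 5 in every list. For Bach1 it was 105 (85.9 to 127), for Bach2 43 (31.1 to 57.9) and for Mafk 29 (19.4 to 41.6). The Bach1 fold enrichment of 20.5 ranked 54, while the pileup ranked 575. The control background was at the lowest value of each list, which enters the fold enrichments by definition. That value was found at 391 Bach1, 79 Bach2 and 481 Mafk peaks (tolerance 0.001), so it is not particular to this site. Fold enrichment was 6.66 for Bach2, rank 239, and 4.70 for Mafk, rank 962. A Bach1 peak without partners stood 8169 bp away, at 45938300 to 45938656, with a pileup of 33 (22.7 to 46.3) and a fold enrichment of 6.56.

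The Slc40a1 window cuts through a group of peaks. Its common Bach1 summit was 280 bp inside the start, and the nearest peaks outside it were again of all 3 factors, 12604 bp before the start by the Bach1 summit. That outer Bach1 peak, at 45917165 to 45917726, had a pileup of 111 and a fold enrichment of 19.2, rank 72, next to a pileup of 105 and a fold enrichment of 20.5 at the inner one. The outer Bach2 peak had a pileup of 28 (fold enrichment 3.98) and the outer Mafk peak one of 36 (5.05). Thus 2 sites of similar Bach1 height stood 12884 bp apart, of which the rule took 1. Before the Fth1 window, a Bach1 peak (pileup 66) and a Bach2 peak (72) lay 6465 and 6426 bp away. A Mafk peak with a pileup of 125 and a fold enrichment of 8.65 lay 10201 bp after that window. Around Slc48a1 the nearest peak of any list was 177656 bp outside the window, and around Blvrb 116481 bp, so these groups stood alone over a wider stretch. The nearest peak outside the Ftl1 window was a Bach1 peak 27638 bp before it, with a pileup of 51.

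**Figure D2:**
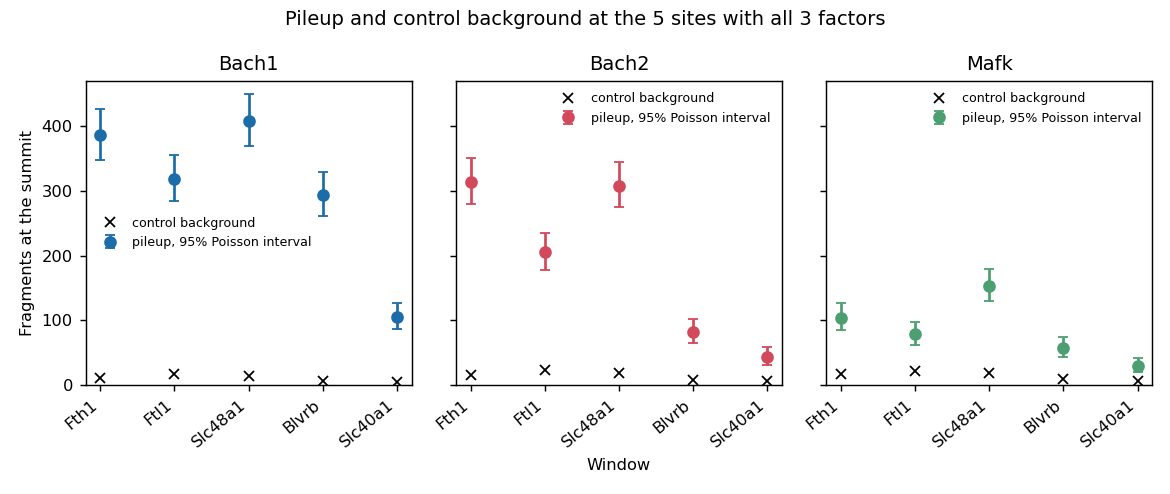
Pileup (fragments at the summit, points, with exact 95% Poisson intervals) and control background (crosses) at the 5 sites with all 3 factors, with 1 panel per list; pileups are not scaled between libraries. Fth1 and Slc48a1 are high in all 3 panels, Blvrb is high for Bach1 (294) and low for Bach2 (82), and Slc40a1 is lowest in each.

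The order of the 5 common sites depended on the list and on the measure. By pileup, Bach1 ran Slc48a1, Fth1, Ftl1, Blvrb and Slc40a1. The intervals of the neighbours Slc48a1 (369 to 450) and Fth1 (348 to 426) overlapped, as did those of Fth1 and Ftl1 (284 to 355) and of Ftl1 and Blvrb (261 to 330), whereas Slc40a1 (85.9 to 127) was clear of the rest. For Bach2, Fth1 and Slc48a1 had overlapping intervals, Ftl1 followed clear of both, and Blvrb and Slc40a1 were lower again, each clear of the next. Mafk had Slc48a1 clear at the top, overlapping intervals from Fth1 to Ftl1 and from Ftl1 to Blvrb, and Slc40a1 at the bottom. By fold enrichment, Blvrb moved to the top for Bach1 and Ftl1 to the bottom, and 5 of the 10 pairs of windows changed their order. For Bach2 1 pair changed, and for Mafk 3 did. From pileup to fold enrichment, Blvrb moved up in all 3 lists and Slc40a1 in the Bach1 and Mafk lists, and these sites had the lowest control background of the 5. Ftl1, with the highest background, moved down in all 3 lists, Slc48a1 moved down for Bach1 (below Blvrb and Fth1) and Fth1 for Mafk (below Blvrb). Since fold enrichment is pileup over control background, such moves follow from the backgrounds by definition and are no separate result.

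Blvrb and Slc40a1 had the highest ratios of Bach1 to Bach2 among the common sites. The Bach1 pileup was 3.59 times the Bach2 pileup at Blvrb (95% exact binomial interval 2.80 to 4.64) and 2.44 times at Slc40a1 (1.70 to 3.57). It was 1.23 times at Fth1 (1.06 to 1.43), 1.32 times at Slc48a1 (1.14 to 1.54) and 1.55 times at Ftl1 (1.30 to 1.86). The interval of Blvrb was above those of Fth1, Slc48a1 and Ftl1, while that of Slc40a1 was above those of Fth1 and Slc48a1 and overlapped that of Ftl1. Library depths are not given, so a ratio has meaning beside other sites and not by itself. The lowest control background was 4.18 in the Bach1 list, 5.61 in the Bach2 list and 5.39 in the Mafk list. No ratio was scaled by it. Over the 293 sites of the study with 1 peak of each factor, the median ratio was 1.51 (quartiles 1.15 to 1.96), and Blvrb ranked 3, Slc40a1 19, Ftl1 142, Slc48a1 191 and Fth1 211 from the highest. With the control background taken off both pileups, the ratio at Blvrb was 3.90 and ranked 7, and that at Slc40a1 was 2.70 and ranked 22. Across these 293 sites, which share libraries and control, the ratio was lower where the control background was higher (Spearman rho -0.47). Blvrb and Slc40a1 were the 2 common sites of low background, and the part of the background in their ratios was not tested further.

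By the ratio itself, Bach1 was high beside Mafk, above the upper quartile of the 293 sites, at 4 of the 5 common sites. Only at Blvrb was the interval wholly above that quartile. This ratio was not computed with the control background taken off. The ratio of Bach1 to Mafk pileup was 5.16 at Blvrb (3.87 to 6.98), 4.08 at Ftl1 (3.17 to 5.29), 3.71 at Fth1 (2.98 to 4.65) and 3.62 at Slc40a1 (2.38 to 5.67), ranks 7, 26, 39 and 43 of 293. Slc48a1, at 2.67 (2.21 to 3.23), ranked 121, near the median of 2.33 (quartiles 1.35 to 3.19). The Slc48a1 interval did not reach that of Blvrb, and it overlapped those of Ftl1, Fth1 and Slc40a1. Against Bach2 the picture differed: the ratio of Bach2 to Mafk pileup was 3.02 at Fth1, 2.63 at Ftl1 and 2.01 at Slc48a1. These ranked 16, 23 and 65 of 293. At Slc40a1 (1.48, rank 127) and Blvrb (1.44, rank 135) that ratio was near the median of 1.36. The intervals were 0.905 to 2.46 at Slc40a1 and 1.01 to 2.05 at Blvrb. Both reached past the upper quartile of 1.92, so they do not settle whether Mafk was low for the Bach2 signal there.

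**Figure D3:**
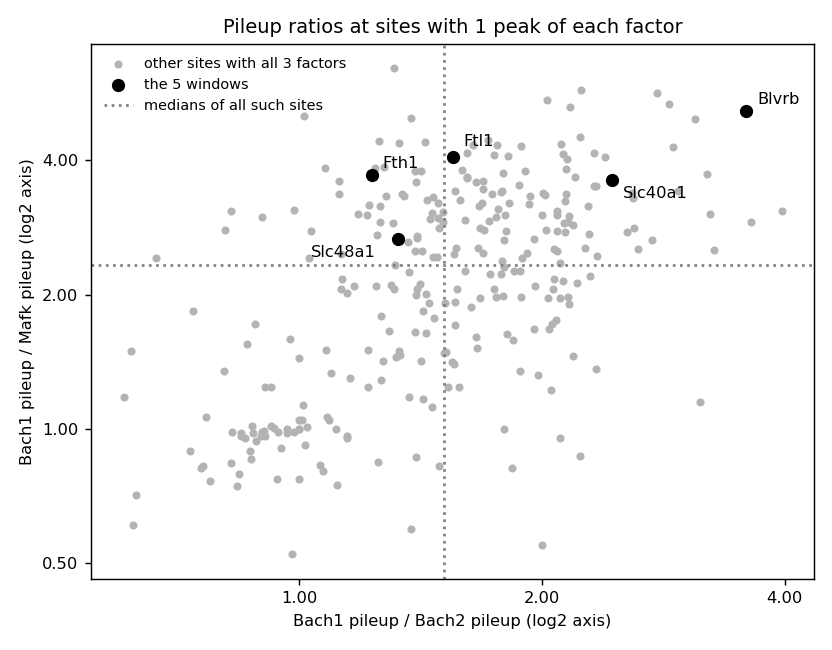
Ratio of Bach1 to Bach2 pileup (x axis) and of Bach1 to Mafk pileup (y axis), both on log2 axes, at the 293 sites with 1 peak of each factor (grey points), with the 5 common sites in black and dotted lines at the medians of 1.51 and 2.33. All 5 lie above the median of the y axis, and Blvrb (3.59) and Slc40a1 (2.44) lie to the right on the x axis.

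At the common sites the 3 peaks were nested: the Mafk peak lay inside the Bach2 peak and that inside the Bach1 peak in 5 of 5 windows. The same held at 57.0% of the 293 sites with 1 peak of each factor. Bach1 peaks there were 633 to 1241 bp long, Bach2 peaks 348 to 692 bp and Mafk peaks 229 to 448 bp, and in the study's sites of all 3 factors the median lengths were 557, 400.5 and 305.5 bp. The called length depends on how far the signal stands above the caller's threshold, so nesting is no measure of binding width. The 3 summits lay within 7 bp at Slc48a1 (97617299, 97617300 and 97617293 for Bach1, Bach2 and Mafk) and within 9 bp at Ftl1 (52716352, 52716361 and 52716361). They spread over 31 bp at Blvrb (28168396, 28168365 and 28168388), 39 bp at Fth1 (10053101, 10053105 and 10053140) and 45 bp at Slc40a1 (45930280, 45930295 and 45930325). The spread over all 293 such sites had a median of 31 bp and quartiles of 17 and 51 bp. The Mafk summit stood apart from both Bach summits at Fth1 and Slc40a1, and the Bach2 summit was the outer one at Blvrb.

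**Figure D4:**
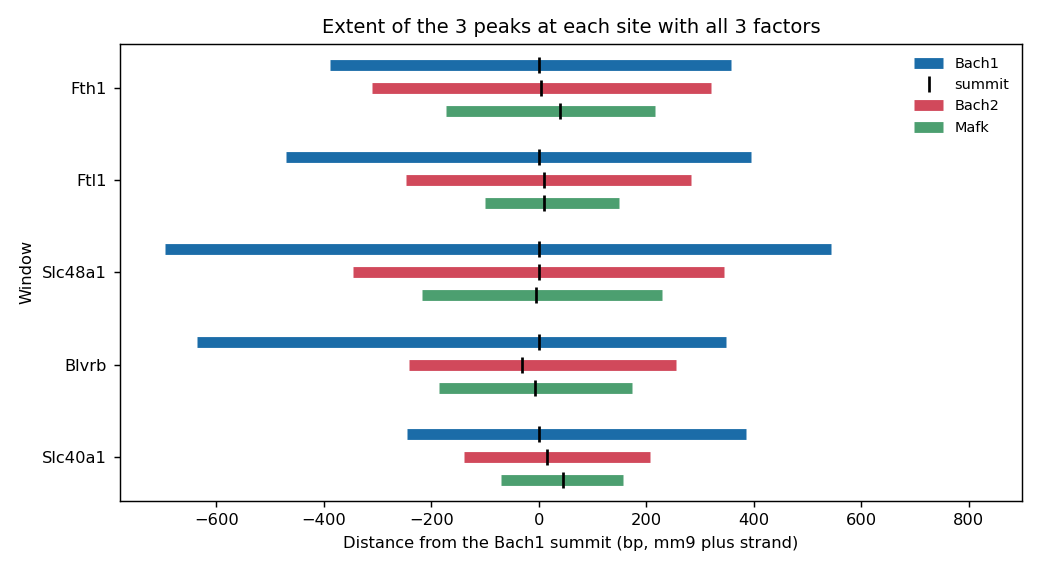
Extent of the Bach1, Bach2 and Mafk peaks (bars) and their summits (black ticks) at the common site of each window, in bp from the Bach1 summit on the mm9 plus strand. In each window the Mafk bar lies inside the Bach2 bar and that inside the Bach1 bar, and the summits fall within 7 to 45 bp.

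Each common site also had a second Bach1 peak close by. Another Bach1 summit lay within 10 kb in 5 of 5 windows, against 17.2% of the 297 sites of all 3 factors. The windows were chosen with these peaks known, so nothing is read from that difference. The distance to the nearest was 808 bp at Ftl1, 2364 bp at Slc48a1, 4160 bp at Fth1, 6081 bp at Blvrb and 8169 bp at Slc40a1. The 7 Bach1 peaks without partners had pileups of 33 to 73 (median 50) and fold enrichments of 2.87 to 6.76 (median 4.88). Over the 2580 such peaks of the list, which are 66.6% of it, the medians were 45 and 4.05. The absence of Bach2 and Mafk calls at these 7 sites is bounded by depth. At a control background within 10% of each, the lowest pileup of a called peak ran from 24 to 71 in the Bach2 list and from 20 to 70 in the Mafk list, so lower signals of these factors could have gone uncalled.

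Distances from the peaks to the genes are not given, for want of mm9 gene positions. In the RefSeq gene table of another build, GRCm38, the next protein-coding genes are Incenp and Best1 for Fth1, Gys1 and Bax for Ftl1, Rapgef3 and Hdac7 for Slc48a1, Sptbn4 and Sertad3 for Blvrb, and Wdr75 and Dnah7b for Slc40a1. A peak in a window can therefore lie nearer to such a neighbour than to the gene the window is named for. RefSeq promoters of that build, 250 bases before to 50 after a start, were at hand for 3 of the genes: 2 each for Fth1 and Blvrb and 1 for Ftl1. None of these 5 held, on either strand, the long Maf recognition element (TGC directly followed by TGAGTCA, found in 0.155% of all 32851 promoters), the core antioxidant response element TGACNNNGC (12.4%) or TGAGTCA by itself (5.20%). The search says only that these letters are not in those 5 promoters. No sequence of the windows or of the peaks was searched. The first of the 3 strings contains the last, so its absence is no separate result.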

How the data were processed

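ChIP-seq libraries of Bach1, Bach2 and Mafk in M1 cells, 1 each, were analysed from the deposited peak lists. The tools in the submitters' processing notes are CASAVA 1.8, BWA 0.7.10 and MACS2 2.1.0, with the build mm9 and no settings. The columns, per the file headers, are position, length, summit, pileup and fold enrichment. Pileup was deposited as a signal in whole fragments, not scaled between libraries, and the deposited fold enrichment is the authors' ratio of pileup to control. Read totals are not given in the sources used here. To get the control background at a summit, pileup + 1 was divided by fold enrichment and 1 was taken off, since MACS2 adds a pseudocount of 1; it is given relative to the list's lowest, which recurred at 391 Bach1, 79 Bach2 and 481 Mafk peaks (tolerance 0.001).

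Peaks were assigned to windows by summit and called shared with at least 1 bp in common. Every peak in the windows is named. Ranks are within a list. Stretches for the background were laid end to end over the span of each chromosome the lists cover. Pileups have exact Poisson and ratios exact binomial 95% intervals, which take fragments as independent. Members and lists were chosen with earlier results of these data known. Work was done in Python 3.11.15 with scipy 1.17.1, and the functions were tested on simulated data. Alternatives were other window limits, stricter thresholds (among them a Poisson p recomputed from pileup and background), lists of equal length, other overlap rules and other measures of strength.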

Additional observations from a re-analysis of the deposited data

How the results depend on the processing

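Of 158 alternative values, 133 stayed within their limit. The limit was 1.5 times the main count or, for the 5 ratios of Bach1 to Bach2 pileup, the interval of the main ratio. Among the 63 alternatives for the main results, 12 went beyond it. A window order with 7 of 10 pairs kept counted as within it. With windows shortened by 10 kb at each end, the common sites at Blvrb and Slc40a1 fell outside, and the Slc40a1 window held 0 peaks of any factor: windows with a Bach1 peak went from 5 to 4, Mafk peaks went from 5 to 3, windows with a Mafk peak to 3, windows with a Bach2 peak to 3 and common sites to 3 (the last chosen after seeing the data, like the ratios without background). Requiring a fold enrichment of at least 5 left 3 Mafk peaks in 3 windows and 3 common sites; Ftl1 and Slc40a1 lost their Mafk peak. A reciprocal overlap of 50% left 1 common site, at Fth1, and 1 of the 5 Mafk peaks on Bach1, or 1 of the 13 Bach1 peaks on Mafk. A nested peak shorter than 50% of the outer one fails this rule by its construction. By pileup, with or without the background taken off, 5 of 10 pairs of windows kept their Bach1 order and the others turned. No paired analysis was possible because there were no replicates (1 library a factor), so none was left out either.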
